A study of Mus musculus with 4 samples.

Results

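Ubiquitin ligase and substrate receptor genes were followed in 2 pools of mutant mouse cells, in which piggyBac transposon insertions had been mapped by sequencing. The genes were chosen by symbol. They are the F-box genes (Fbxo, Fbxl, Fbxw), the Kelch-BTB genes (Klhl), Zyg11a and Zyg11b, the cullins, the numbered Rnf and Trim genes, the Siah and Cbl genes and the HECT genes Ube3, Herc, Hectd, Nedd4, Nedd4l, Huwe1 and Itch. Of 5614 genes with reads, 102 matched, 75 of them with reads in library 1 and 54 in library 2, and 27 in both.

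The cells were haploid neural stem cell-like cells of a 129Sv background, made from haploid embryonic stem cells in N2B27 medium with FGF2, EGF, the BMP receptor inhibitor LDN193189, the activin and TGF-beta receptor inhibitor SB431542 and a ROCK inhibitor (Y-27632, thiazovivin or both). They received a piggyBac gene trap plasmid and a codon-optimised transposase, and were selected with G418. Library 1 and library 2 each pool 2 samples into 1 table of reads per gene. No treatment, genotype or strain that the labels give differs between them, and neither has an untransfected or unselected control. How the resistance gene of the trap is driven, and how far trapping depends on the expression of the gene hit, is not given in the sources used here. The assay reads genomic DNA, so it cannot check the cell type against marker genes.

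Library 1 held 55442 nonredundant and 877870 redundant reads over 4184 genes. Library 2 held 48750 and 1300140 over 3168 genes. The redundant count of a gene is never below its nonredundant count, and nonredundant reads are meant below where no kind is named. Both come from PCR and do not count insertions or cells. With 1 table per library there is no replicate, so no p-value is given, and every interval below is an exact 95% interval. Intervals of read shares and folds cover counting error only. Those of shares of genes treat each gene as an independent draw and do not cover error in the reads. Some members lie side by side in the genome and may not be independent. For folds, a gene without a read in a library was set to the share of 3 reads, 0.00541% in library 1 or 0.00615% in library 2. The exact 95% interval of 0 reads reaches 0.00665% in library 1 and 0.00757% in library 2. A fold given as at least a value uses the share of 3 reads. It leaves out the counting error of the other count, so it is not a 95% limit.

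Ubiquitin ligases, the E3 enzymes, choose which proteins receive ubiquitin, a small protein that marks many of its targets for the proteasome. RING ligases, among them many Rnf, Trim, Siah and Cbl proteins, hold a ubiquitin-loaded E2 enzyme next to the target. HECT ligases take the ubiquitin onto a cysteine of their own first. In cullin ligases the work is divided, with a cullin as scaffold and exchangeable receptors that bind the targets: F-box proteins on Cul1, Kelch-BTB proteins on Cul3 and ZYG11 proteins on Cul2. The classes below follow symbols alone, and the domains and partners of each member were not checked. A haploid cell has no spare copy of any of these genes.

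Insertion by piggyBac needs the 4 bases TTAA in the genome, a sequence that reads the same on both strands. The tables give a read count per gene and no insertion site, so the sites behind the reads cannot be shown. The 250 bases before the annotated start are shown for 4 leading members, because a start region is where the genes can be set beside each other, with each TTAA in capitals. The sequences are RefSeq's for the build GRCm38.p6, 5′ to 3′ in the direction of the gene. The reads were mapped to another build, so these positions are not those of reads.
Zyg11b, chr4:108301091-108301340, minus strand: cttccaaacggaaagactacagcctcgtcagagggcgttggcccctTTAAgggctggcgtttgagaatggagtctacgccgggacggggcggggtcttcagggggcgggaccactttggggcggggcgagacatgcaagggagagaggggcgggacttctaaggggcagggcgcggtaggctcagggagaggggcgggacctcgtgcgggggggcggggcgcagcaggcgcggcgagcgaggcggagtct
Nedd4, first start, chr9:72662081-72662330, plus strand: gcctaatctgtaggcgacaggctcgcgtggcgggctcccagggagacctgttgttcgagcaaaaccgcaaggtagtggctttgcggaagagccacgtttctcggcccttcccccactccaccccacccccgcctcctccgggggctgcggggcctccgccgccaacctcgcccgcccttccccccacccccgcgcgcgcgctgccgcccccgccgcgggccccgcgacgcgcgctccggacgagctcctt
Nedd4, second start, chr9:72693048-72693297, plus strand: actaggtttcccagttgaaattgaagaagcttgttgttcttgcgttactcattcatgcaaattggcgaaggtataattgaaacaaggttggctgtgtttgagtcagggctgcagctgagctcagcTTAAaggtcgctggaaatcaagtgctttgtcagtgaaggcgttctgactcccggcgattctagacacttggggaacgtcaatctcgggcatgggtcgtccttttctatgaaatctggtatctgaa
Herc6, chr6:57580742-57580991, plus strand: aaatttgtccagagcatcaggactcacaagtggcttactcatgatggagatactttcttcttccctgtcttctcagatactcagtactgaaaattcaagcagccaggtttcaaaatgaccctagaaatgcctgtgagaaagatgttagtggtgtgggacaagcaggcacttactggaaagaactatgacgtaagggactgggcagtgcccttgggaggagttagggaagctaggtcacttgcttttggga
Rnf220, chr4:117375462-117375711, minus strand: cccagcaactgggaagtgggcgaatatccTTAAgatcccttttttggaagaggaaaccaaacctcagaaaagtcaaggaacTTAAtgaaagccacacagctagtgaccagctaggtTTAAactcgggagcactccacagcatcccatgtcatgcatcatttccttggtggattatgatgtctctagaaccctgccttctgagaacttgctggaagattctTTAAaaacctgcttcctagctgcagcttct
These windows differ in the motif, with 1 TTAA before Zyg11b, 4 before Rnf220, 1 before the second start of Nedd4, and 0 before its first start and before Herc6. The first start of Nedd4 lies in the most GC-rich of these windows, at 74% G and C, against 46% at the second. Among 105 such windows of 79 members, 52.4% held at least 1 TTAA, against 49% of all 32851 windows in the promoter table. Siah2 is not among the entries of that table.

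The member with most reads was Zyg11b, a receptor of Cul2 ligases known from human cells for binding proteins that begin with glycine. It had 4 nonredundant reads in library 1 and 941 in library 2, where it took the 7th place among all genes with 1.93% of the reads (95% interval 1.81 to 2.06). Its share was 268-fold higher in library 2 (95% interval 104 to 984). The redundant reads lean the same way, with 167 in library 1 and 15222 in library 2. Behind the 4 reads of library 1 stood 41.8 redundant reads each, against 16.2 in library 2. Zyg11a, its paralogue and direct neighbour on chromosome 4, had 2 reads in library 1 and 0 in library 2. The reads of library 2 were thus assigned to one of the 2 paralogues.

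**Figure D1:**
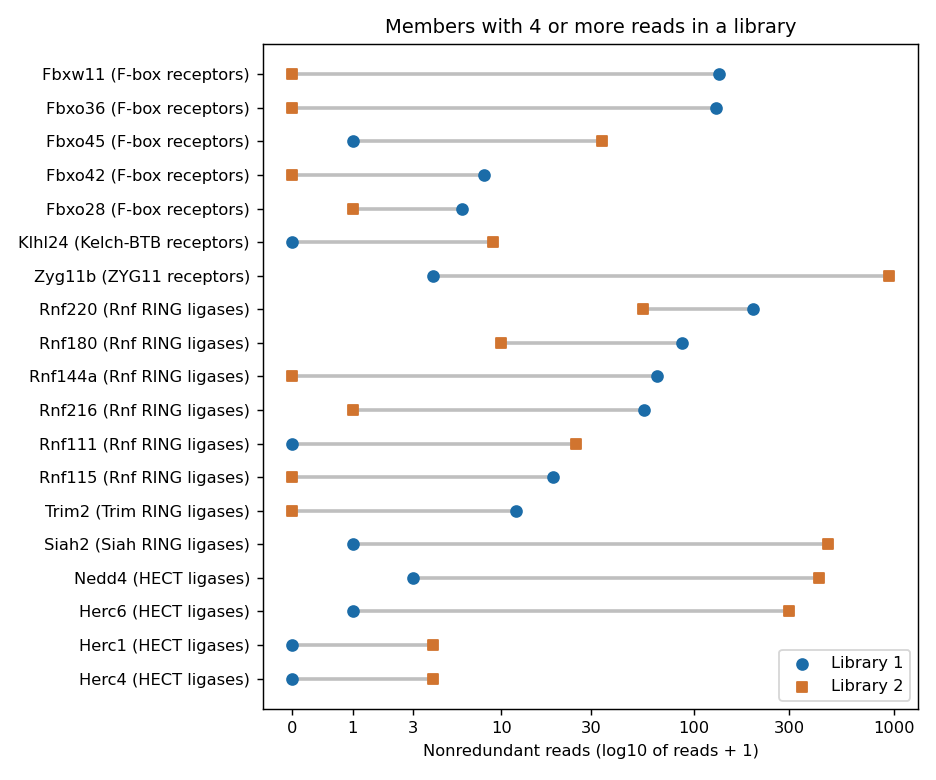
Nonredundant reads in library 1 (circles) and library 2 (squares) of the 19 members with 4 or more reads in a library, grouped by class, on a log10 scale of reads + 1. Most members sit far to the right in a single library; Rnf220 and Rnf180 alone have 10 or more reads in both.

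F-box genes, many of whose products carry substrates to Cul1, formed one of the 2 largest classes, with 26 listed members. Fbxw11 encodes a receptor that binds phosphorylated beta-catenin and inhibitors of NF-kappaB. It had 133 reads in library 1 and 0 of 48750 in library 2, at least a 39-fold higher share in library 1. Fbxo36 had 129 reads in library 1 and 0 in library 2, at least 37.8-fold higher in library 1. These 2 genes made up most of the 295 F-box reads of library 1, against 53 F-box reads in library 2.

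Fbxo45, which is known in mouse for its part in the development of neural circuits, ran the other way. It had 1 read in library 1 and 34 in library 2, a 38.7-fold higher share in library 2 (95% interval 6.49 to 1570). The wide interval comes from the single read. The next F-box genes were Fbxo42 with 8 reads in library 1 and 0 in library 2, and Fbxo28 with 6 and 1. The other 21 listed F-box genes had 3 or fewer reads in each library.

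The Fbxw group contains a tandem run of 14 genes on chromosome 9 in the RefSeq order. Of these, 5 were listed, Fbxw16, Fbxw18, Fbxw21, Fbxw22 and Fbxw24, with 6 reads in library 1 and 4 in library 2 over the run. Its genes resemble each other closely, so the assignment of so few reads among them is uncertain. The same holds for the run of 10 Trim genes on chromosome 7, of which 3 were listed with 5 reads in library 1 and 1 in library 2. Both runs were listed at near the 34.7% of all rule-matching genes.

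Kelch-BTB genes, the receptors of Cul3, had 14 listed members but few reads, 12 in library 1 and 20 in library 2. None reached 10 reads. Klhl24, which is known from human skin for the breakdown of a keratin, was not listed in library 1 and had 9 reads in library 2. Klhl13 had 1 read in library 1 and 2 in library 2. It is the 1 listed gene of 8 rule-matching genes on the X chromosome. With 8 genes this cannot be told from the 34.7% listed among all rule-matching genes. Klhl1 also had 1 and 2 reads.

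Cullins themselves had at most 1 read each in a library, which is also the median of all listed genes. Of 8 cullin genes, 4 were listed in either library (50%, interval 15.7 to 84.3), against 26.6% of all genes. The observed share was above that of all genes, but the interval holds the value of all genes, so 8 genes cannot tell the 2 shares apart. Cul2 had 1 read in library 1, Cul4a had 1 in each library, and Cul5 and Cul9 had 1 each in library 2. The single nonredundant read of Cul4a stood for 55 redundant reads in library 1 and 7 in library 2. Cul1, Cul3, Cul4b and Cul7 were not listed. Cul2, the scaffold that binds ZYG11 proteins, therefore had 1 read in library 1 and none in library 2, where Zyg11b had its 941.

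Rnf genes supplied most member reads of library 1, with 442 of 805, and had 103 in library 2. Rnf220, a RING ligase known in mouse for its action on Gli proteins in the neural tube, led library 1 with 198 reads and had 55 in library 2. Its share was 3.17-fold higher in library 1 (95% interval 2.34 to 4.35). It was the one member with more than 50 reads in both libraries. Rnf180, a ligase with a membrane anchor that is expressed in mouse brain, had 87 reads in library 1 and 10 in library 2, a 7.65-fold higher share in library 1 (95% interval 3.97 to 16.5).

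Rnf144a and Rnf216 belong to the RBR ligases, which pass ubiquitin over a cysteine as HECT ligases do. Rnf144a had 65 reads in library 1 and 0 in library 2, at least 19.1-fold higher in library 1. Rnf216 had 56 reads in library 1 and 1 in library 2, a 49.2-fold higher share in library 1 (95% interval 8.48 to 1980). Both leaned to library 1. The other listed RBR genes with an Rnf symbol, Rnf14, Rnf19b, Rnf31 and Rnf217, had 1 read each in it and 0, 0, 0 and 1 in library 2. RBR genes with other symbols were not gathered here.

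Rnf111, also called Arkadia, promotes TGF-beta and nodal signalling by marking the repressors Ski and SnoN for breakdown. It was the one Rnf gene with 10 or more reads in library 2 and none in library 1. Its 0 reads in library 1 and 25 in library 2 made it at least 9.48-fold higher in library 2. Rnf115 had 19 reads in library 1 and 0 in library 2, at least 5.57-fold higher in library 1. The remaining 20 listed Rnf genes had 3 or fewer reads in each library.

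Among the 16 listed Trim genes, Trim2 alone passed 3 reads. It encodes a ligase of neurons that acts on neurofilament light chain in mouse. It had 12 reads in library 1 and 0 in library 2, at least 3.52-fold higher in library 1. Trim30d and Trim31 had 3 reads in library 1 and 0 in library 2, and Trim44 had 0 in library 1 and 3 in library 2.

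Siah2 is a RING ligase that marks the prolyl hydroxylases of oxygen sensing for breakdown. It had 1 nonredundant read in library 1 and 468 in library 2, the 14th place there. The share was 532-fold higher in library 2, with an interval of 95.1 to 21100 that again rests on a single read in library 1. Its redundant reads were 2 in library 1 and 17307 in library 2. By redundant reads Siah2 therefore stood above Zyg11b in library 2, although it had fewer nonredundant ones. Siah3 had 1 nonredundant and 18 redundant reads in library 1 and none in library 2, and Siah1a and Siah1b were not listed.

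The Cbl ligases, which take down activated receptor tyrosine kinases, had 2 reads in library 1 and 3 in library 2. Of 3 Cbl genes, 2 were listed in either library (66.7%, interval 9.43 to 99.2), against 26.6% of all genes. The value of all genes lies inside that interval. Cbl had 2 reads in library 1 and 0 in library 2, and Cblc had 0 in library 1 and 3 in library 2. Cblb was not listed, although at 177 kb it is the longest of the 192 rule-matching RefSeq genes without a read. Huwe1, a HECT ligase of 135 kb, was the next longest of these.

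HECT genes had 15 reads in library 1 and 728 in library 2 over 10 listed members, a difference that came from Nedd4 and Herc6. The other 8 together had 11 reads in library 1 and 10 in library 2. Nedd4, which acts on membrane channels and receptors, had 3 reads in library 1 and 420 in library 2. Its share was 159-fold higher in library 2 (95% interval 54.1 to 775). Herc6, the main ligase for the ubiquitin-like protein ISG15 in mouse, had 1 read in library 1 and 298 in library 2, a 339-fold higher share in library 2 (95% interval 60.4 to 13400). Nedd4l, the close relative of Nedd4, had 3 reads in library 1 and 2 in library 2, too few to give it a lean. Herc1 and Herc4 had 0 reads in library 1 and 4 each in library 2.

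**Figure D2:**
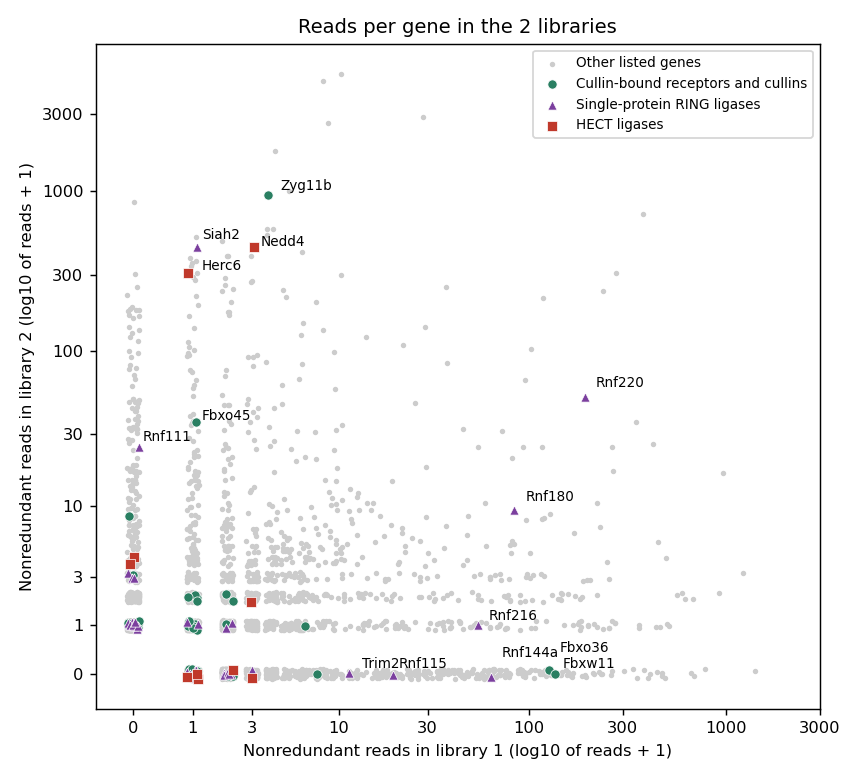
Nonredundant reads of every listed gene in library 1 (horizontal) and library 2 (vertical), on log10 scales of reads + 1 with a small random offset so that equal counts show. Members are coloured by group of classes, with the RBR genes of the Rnf class among the RING ligases. The 14 members with 10 or more reads in a library are named. Zyg11b, Siah2, Nedd4 and Herc6 lie high at 1 to 4 reads in library 1, and Rnf220 and Rnf180 lie away from both axes.

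With 10 or more reads in at least 1 library there were 14 members, 4.76% of 294 rule-matching RefSeq genes (95% interval 2.63 to 7.86). Over all 21035 RefSeq genes with curated transcripts the share was 3.56%, inside that interval. By library, 8 members had 10 or more reads in library 1 (2.72%, 95% interval 1.18 to 5.29) and 8 in library 2 (2.72%, the same interval). All genes gave 2.37% in library 1 and 1.40% in library 2.

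Differences past 10-fold were counted among these 14. Higher in library 1 by 10-fold or more were 4 members, Fbxw11, Fbxo36, Rnf144a and Rnf216 (28.6%, 95% interval 8.39 to 58.1), against 40.8% of the 750 genes that met the same minimum. Higher in library 2 were 5, Zyg11b, Siah2, Nedd4, Herc6 and Fbxo45 (35.7%, 95% interval 12.8 to 64.9), against 24.5% of all genes. Both backgrounds lie inside the members' intervals. The members' counts are thus near the background, where a strong lean to a single library was common. The remaining members, Rnf111, Rnf115, Trim2, Rnf220 and Rnf180, stayed under 10-fold, the first 3 with a bound that few reads hold low.

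Some members with many reads in a library were also seen in the other one. Of the 8 with 10 or more in library 1, 3 had a read in library 2, namely Rnf220, Rnf180 and Rnf216 (37.5%, 95% interval 8.52 to 75.5), against 56.3% of all such genes. Of the 8 with 10 or more reads in library 2, all but Rnf111 had at least 1 read in library 1 (87.5%, 95% interval 47.3 to 99.7), against 70.1% of all such genes. The 4 leading members of library 2 had 1 to 4 reads in library 1. Whether such low counts come from insertions of that library was not tested.

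The whole set took 1.45% of the reads of library 1 (95% interval 1.35 to 1.56) and 4.77% of library 2 (95% interval 4.58 to 4.96). Members made up 1.79% of the listed genes of library 1 and 1.7% of those of library 2. In library 1, Rnf220, Fbxw11, Fbxo36 and Rnf180 held 68% of the member reads, and without them the share was 0.465%. In library 2, Zyg11b, Siah2, Nedd4 and Herc6 held 91.4%, and without them the share was 0.408%. The higher share of library 2 thus rested on its 4 leading members. On redundant reads the shares were 0.403% in library 1 and 2.9% in library 2.

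By groups of classes, the 2 libraries held their reads in different places. Cullins and their receptors had 315 reads in library 1 and 1017 in library 2, of which Zyg11b had 92.5%. Single-protein RING ligases had 475 in library 1, led by Rnf220 with 41.7%, and 581 in library 2, led by Siah2 with 80.6%. This group was taken by symbol and includes the 6 listed RBR genes of the Rnf class, among them Rnf144a with 65 reads and Rnf216 with 56 in library 1. HECT ligases were the smallest in library 1 and second in library 2. In library 1 Fbxw11 and Fbxo36 led the first sum, and in library 2 Nedd4 and Herc6 made up nearly all of the HECT sum, so the sums describe these genes and not a mechanism.

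Most members had few reads, as most listed genes did. Of the 102, 83 had 3 or fewer reads in both libraries (81.4%, 95% interval 72.4 to 88.4), against 76.4% of all listed genes. A single read in all was found for 49 (48%, 95% interval 38 to 58.2), against 46.7%. Exactly 1 read was found in 60% of the members listed in library 1 (95% interval 48 to 71.1), against 53.7% of all listed genes. In library 2 it was 59.3% (95% interval 45 to 72.4), against 59.7%. The 27 members in both libraries were 26.5% of those listed in either (95% interval 18.2 to 36.1), against 31.0% of all genes, and 18 of the 27 had 3 or fewer reads in each.

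Counted against the reference, 102 of 294 rule-matching genes had a read in either library, 34.7% (95% interval 29.3 to 40.4), against 26.6% of all genes. In library 1 the share was 25.5% (95% interval 20.6 to 30.9), against 19.9%. In library 2 it was 18.4% (95% interval 14.1 to 23.3), against 15.0%. In both libraries it was 9.18% (95% interval 6.14 to 13.1), against 8.25%. The members' interval lay above the value of all genes in either library and in library 1, and held it in library 2 and in both. The first 2 of these rest on single reads. At 2 or more reads the members' share was 15.3% in either library (95% interval 11.4 to 19.9), against 12.1% of all genes, and 10.2% in library 1 (95% interval 6.99 to 14.2), against 9.19%, so both intervals then held the background.

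**Figure D3:**
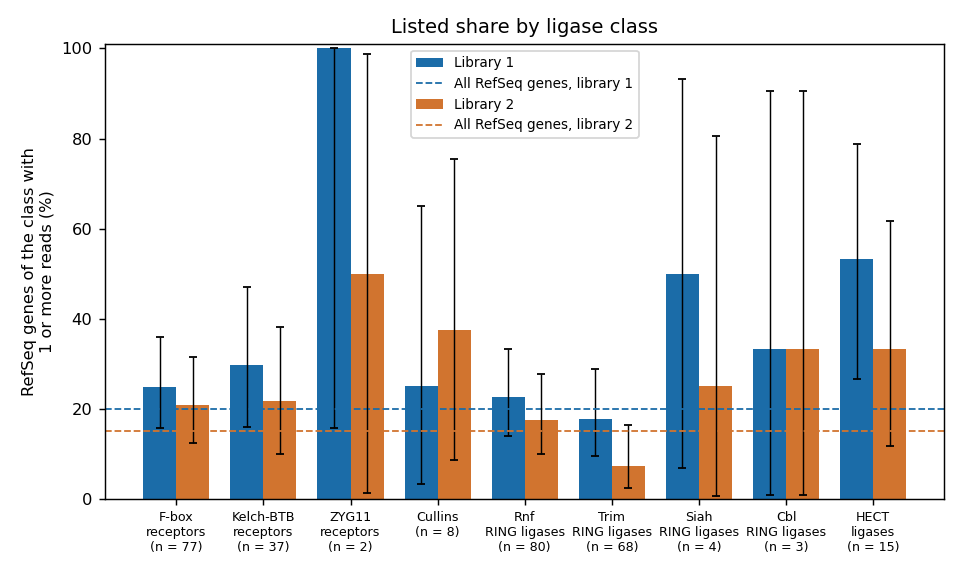
Share of the RefSeq genes of each class with 1 or more nonredundant reads in library 1 and library 2. Bars are exact 95% intervals that treat genes as independent draws, and dashed lines mark all RefSeq genes. HECT genes stand highest among the classes of 15 or more genes, and Trim genes lowest.

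HECT genes were listed most often and Trim genes least often among the classes of 15 or more genes, with intervals that overlap. HECT genes had 8 of 15 in library 1 (53.3%, 95% interval 26.6 to 78.7) and 5 of 15 in library 2 (33.3%, 95% interval 11.8 to 61.6). Trim genes had 12 of 68 in library 1 (17.6%, 95% interval 9.47 to 28.8) and 5 of 68 in library 2 (7.35%, 95% interval 2.43 to 16.3). The Rnf class, with 18 of 80 genes in library 1 (22.5%) and 14 in library 2 (17.5%), lay between them. So did F-box genes with 19 of 77 in library 1 (24.7%) and 16 in library 2 (20.8%). Kelch-BTB genes, with 11 of 37 in library 1 (29.7%) and 8 in library 2 (21.6%), also lay between. HECT genes are also the longest of these and Trim genes the shortest. In GRCm38.p6 the median HECT gene spans 87.5 kb and the median Trim gene 15.9 kb. The medians were 26.8 kb for Kelch-BTB genes, 26.3 kb for Rnf genes and 24.7 kb for F-box genes.

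Length was then set beside listing gene by gene. Listed members had a median length of 56.2 kb, against 62.4 kb for all listed genes. Rule-matching genes without reads had a median of 16.9 kb, against 11.4 kb for all genes without reads. All RefSeq genes were ordered by length and cut into 5 classes with the same number of genes. In the shortest class 0 of 18 rule-matching genes were listed (95% interval up to 18.5%), against 1.5% of all genes. In the middle class 23.8% were listed (95% interval 14.9 to 34.6), against 18.3%, and in the longest 71.4% (95% interval 59.4 to 81.6), against 69.3%. In each of the 5 classes the value of all genes lay inside the members' interval.

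**Figure D4:**
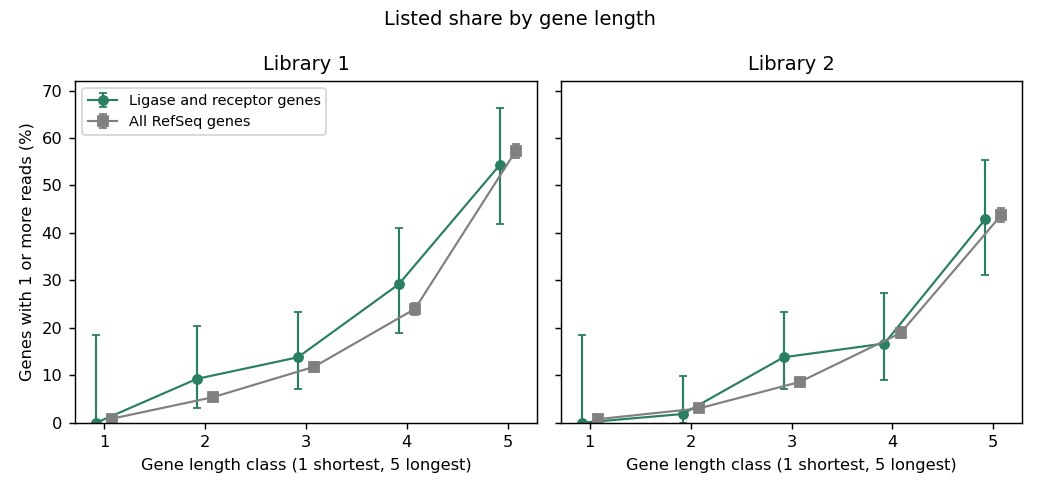
Share of rule-matching ligase and receptor genes (circles) and of all RefSeq genes (squares) with 1 or more nonredundant reads, in 5 classes of gene length, for library 1 and library 2; bars are exact 95% intervals. Both sets climb together, to 54.3% of the ligase and receptor genes and 57.3% of all genes in the longest class of library 1.

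Members with 10 or more reads were mostly long, as such genes were in general. In library 1 all 8 fell in the longest class (95% interval 63.1 to 100%), against 73.5% of all genes with 10 or more reads. In library 2 there were 6 of 8 in the longest class (75%, 95% interval 34.9 to 96.8), against 74.1%. Siah2 (17.5 kb) and Fbxo45 (16.9 kb) were in the middle class, where 2.5% of rule-matching genes had 10 or more reads in library 2 (95% interval 0.304 to 8.74), against 0.475% of all genes, a value inside that interval. Siah2 was the 6th shortest of 78 genes with 100 or more reads in library 2, whose median length was 113 kb. Per kb of gene, the highest nonredundant counts of library 1 were 2.13 for Fbxo36, 1.28 for Fbxw11 and 0.878 for Rnf220. In library 2 Siah2 had 26.8 per kb, above Zyg11b with 12.8, Nedd4 with 4.8, Herc6 with 3.54 and Fbxo45 with 2.01. The median per kb of listed members was 0.0329 in library 1 and 0.0254 in library 2.

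Genes next to the leading members had few reads or none. Zyg11a, beside Zyg11b, had the 2 reads in library 1 given above, Eri3 beside Rnf220 had 2 in library 1 and 0 in library 2, and Prtg beside Nedd4 had 1 in each library. Coa7 beside Zyg11b and Erich6 and Clrn1 beside Siah2 had no read in either library, nor had Ppm1k and Pyurf beside Herc6. In neither library did any of the 8 members with 10 or more reads have an adjacent gene with 10 or more there, against 8.43% of such genes in library 1 and 7.48% in library 2, shares too low to be told from 0 with 8 members. An adjacent gene with at least 1 read was found for 2 of these 8 members in library 1 (25%), against 50.2% of all such genes. In library 2 it was found for 3 of 8 (37.5%), against 42.5%. With 8 members neither share can be told from that of all such genes. Fbxo36 overlaps Trip12 in the reference, another HECT ligase gene, which had 0 reads in library 1 and 9 in library 2. The reads of Fbxo36 were all in library 1, so the 2 overlapping genes did not share a library.

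The number of redundant reads behind each nonredundant one varied widely among members. In library 1 the 3 members with 100 or more reads had 4.22 for Rnf220, 5.09 for Fbxo36 and 5.44 for Fbxw11, against a median of 12 over all 126 genes of that size. In library 2 the 4 such members spread from 3.25 for Herc6 and 7.74 for Nedd4 to 16.2 for Zyg11b and 37 for Siah2, around the median of 11.2 over all 78 genes. Rnf144a had 1.54 in library 1, from 100 redundant and 65 nonredundant reads. Equal counts of both kinds were found in 58.7% of the members of library 1, against 56.4% of all genes, and in 50% of those of library 2, against 56.2%.

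**Figure D5:**
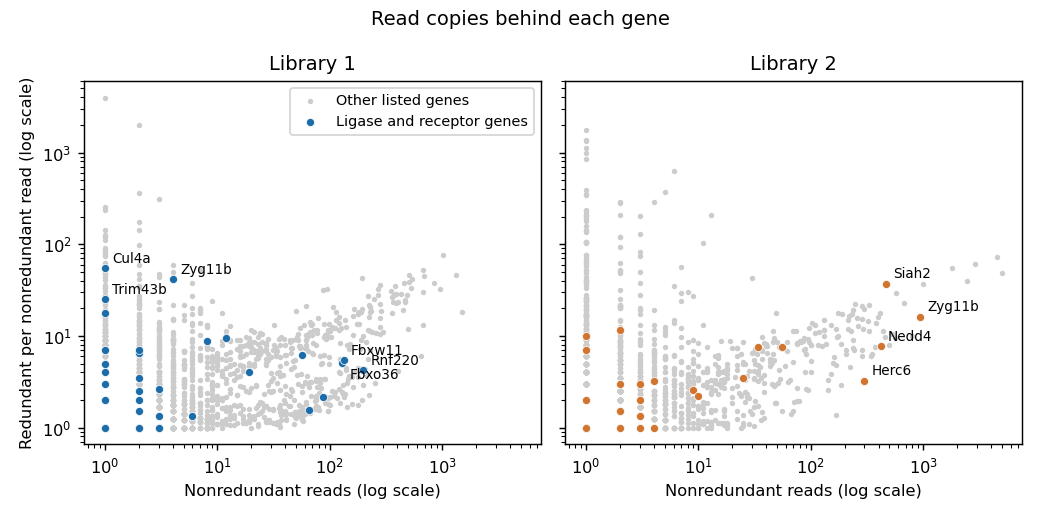
Redundant reads per nonredundant read against nonredundant reads for each gene of library 1 (left) and library 2 (right), both on log scales; members are coloured. In library 1, Zyg11b with 4 reads lies at 41.8 and Cul4a with 1 read at 55; in library 2, Siah2 lies at 37 and Herc6 at 3.25.

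Other parts of the ubiquitin system were counted from lists of their own, beside the 26.6% of all genes with a read in either library. Of 37 E2 genes, whose products hand ubiquitin to the ligases, 16 were listed (43.2%, 95% interval 27.1 to 60.5), led by Ube2n with 187 reads in library 1 and 0 in library 2 and by Ube2k with 2 and 69. Of 75 deubiquitinase genes, which remove ubiquitin, 31 were listed (41.3%, 95% interval 30.1 to 53.3). They were led by Usp9x with 389 reads in library 1 and 1 in library 2, followed by Usp12 with 225 and 0 and Usp54 with 1 and 17. Both lists hold longer genes, with medians of 30.4 kb for E2 genes and 40.2 kb for deubiquitinases, against 17.7 kb for all genes. A single read in all stood behind 6 of the 16 E2 genes and 17 of the 31 deubiquitinases. Their listed shares were not compared within classes of gene length. Among the E1 genes, whose products activate ubiquitin or its relatives, Uba2 and Uba3 had 1 read each in library 1 and 0 in library 2.

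Subunits and regulators that cullin ligases share were the least covered of these lists. Of 22 such genes 4 were listed (18.2%, 95% interval 5.19 to 40.3), each with 1 read, Cops7b in library 1 and Dcun1d5 and Nedd8 in library 2 among them. Of 79 other ligases and receptors outside the symbol rule 30 were listed (38%, 95% interval 27.3 to 49.6). Their median length was 44.5 kb, and 17 of the 30 had a single read in all, so the same limits hold. Deubiquitinases held 1.18% of the reads of library 1 and 0.0697% of library 2, and Usp9x and Usp12 gave 614 of their 652 reads in library 1. The other deubiquitinases had 38 reads in library 1 and 33 in library 2.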

How the data were processed

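Genomic DNA of 4 samples was measured by splinkerette PCR and sequencing. Per the submitters' processing notes, CASAVA and BWA were used with the build mm9. Nonredundant and redundant reads are raw counts per gene, deposited by the authors without normalization, per the file headers. The sources used here do not say how a read was given to a gene, what made it nonredundant or whether strand was used. Each deposited table pools the 2 samples whose labels name it.

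Members and lists were chosen with earlier results of these data known. All 102 members were matched to RefSeq (GRCm38.p6) through transcript accessions, symbols or synonyms. One further gene, listed under an older symbol, would match by its current symbol and was not counted. The reference set was the 21035 genes with curated NM transcripts. Fold changes are ratios of read shares with exact conditional binomial intervals, with a count of 0 set to 3 reads over the library. The coverage of these intervals was tested only on simulated independent Poisson counts and only for folds without a count of 0. That simulation holds no PCR copying, so it cannot show how the intervals cover real reads. No fold is given where both counts are 3 or fewer. Shares have Clopper-Pearson 95% intervals.

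Named genes are members with 10 or more nonredundant reads in a library, up to 3 per class and list by summed reads, Zyg11b and Siah2. Further genes (unlisted, tandem, RBR, neighbouring or overlapping ones, and members with 4 to 9 reads) were named after their values were seen. Certain genes that meet this rule are left unnamed but counted. Analyses used Python 3.11.15, pandas 2.3.3 and scipy 1.17.1.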

Additional observations from a re-analysis of the deposited data

How the results depend on the processing

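The alternatives were a higher read minimum, redundant reads, current RefSeq symbols, other totals and another fold; leaving out the 4 leading members was chosen after the data were examined. Counts of listed members depend on the minimum. At 2 or more nonredundant reads there were 30 members in library 1, 22 in library 2 and 7 in both; at 10 or more 8, 8 and 2; at 2 or more redundant reads 42, 30 and 16. The share of reads in members was 0.403% in library 1 and 2.9% in library 2 on redundant reads, 1.09% and 2.84% without the leading member, and 0.465% and 0.408% without the leading 4. Without the 10 genes with most reads it was 1.73% in library 1. Members 10-fold or more higher in library 1 numbered 10 on redundant reads, of 24 that met the minimum (41.7%), against 44.2% of all genes. The counts past 10-fold stayed within 1.5 times of the reported ones in the other alternatives run. With current symbols 76 members were listed in library 1. Read depth limits genes with 3 or fewer reads, for which no lean to a library can be given. No paired analysis was possible because each table pools its 2 samples, and for the same reason leaving out a sample could not be run.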
